A study of Mus musculus with 8 samples.

Results

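Leukotrienes are inflammatory lipids that leukocytes make from arachidonic acid. 5-Lipoxygenase (Alox5), with the help of 5-lipoxygenase-activating protein (Alox5ap, also called FLAP), turns arachidonic acid into leukotriene A4, which either Lta4h hydrolyses to leukotriene B4 (LTB4), a leukocyte attractant, or Ltc4s joins to glutathione to give leukotriene C4 (LTC4), the parent of the cysteinyl leukotrienes. The products act on G protein-coupled receptors, Ltb4r1 for LTB4 and Cysltr1 and Cysltr2 for the cysteinyl leukotrienes, and the cytochrome P450 Cyp4f18 oxidises LTB4 in mouse neutrophils. In atherosclerosis the pathway is best known from macrophages and other leukocytes of the vessel wall. The 9 genes described here are these 8 and Alox15, the 12/15-lipoxygenase, whose products overlap with the pathway. They were found by symbol, 9 of 24411 gene names in the count table.

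RNA was measured by sequencing in whole aortas of 8 mice, 1 library per mouse, 5 caIKK2EC and 3 Control. All 8 lacked apolipoprotein E, carried on both alleles a constitutively active IKK2 (the kinase that activates NF-κB) with EGFP behind a loxP-flanked STOP cassette, were injected with tamoxifen (1 mg per 20 g of body weight on 5 days in a row) and ate a Western-type diet for 12 weeks. The caIKK2EC mice also carried 1 copy of BMX-CreERT2, a tamoxifen-inducible Cre active in arterial endothelium, which removes the STOP cassette, whereas their Control littermates had no Cre. Whether IKK2 was switched on at an early or a late stage of disease in the mice sequenced was not stated in the labels. The caIKK2EC mice were females, caIKK2EC 1 and 3 of 18 weeks and caIKK2EC 2, 4 and 5 of 19 weeks, and the Control mice were 2 females of 18 weeks and 1 male of 19 weeks, Control 3. The transgene acts in endothelium alone while the RNA comes from the whole vessel, so fewer cells of a type and less RNA per cell cannot be told apart.

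Total counts were 23461655 to 30808502 per library. Ikbkb, the gene of IKK2, was at 99.3, 103, 98.7, 99.9 and 91.6 CPM (counts scaled to library size with TMM factors) in caIKK2EC 1 to 5, against 86.8, 87.0 and 65.4 CPM in Control 1 to 3, and whether reads of the transgene count towards it is not given. Markers of smooth muscle and endothelium, which define the labelled tissue, were detected in every library. Control 3 stood apart. Its sum of 10 endothelial markers was the lowest, at 1617.2 CPM, against 2347.3 and 3165.2 CPM in Control 1 and 2. That sum was 2641.2 to 3366.1 CPM in caIKK2EC libraries. Of these markers Erg, Kdr and Tek, at 69.9, 59.7 and 79.6 CPM in Control 3, were within the range of the other libraries. Control 3 also had the lowest sum of 12 macrophage markers (2364.9 CPM, against 7207.0 and 7458.2 CPM in Control 1 and 2). Its sum of 8 smooth muscle markers was the highest (36540.5 CPM, against 18334.6 and 21772.4 CPM). Much of the macrophage gap was Lyz2, the lysozyme gene, at 541 CPM in Control 3, against 4059.2 and 4398.8 CPM in Control 1 and 2. Without Lyz2 the sums were 1823.8 CPM in Control 3 and 3147.9 and 3059.4 CPM in Control 1 and 2, and Adgre1, Csf1r and Mertk were close to or within the range of the other Controls. Control 3 is also the one male, so sex, age and this library cannot be told apart among Controls, and values without it are given where a result rests on it. By the names of the count columns, lane 7 held caIKK2EC 1 and the 3 Controls and lane 8 held caIKK2EC 2 to 5. This leaves caIKK2EC 1 against the Controls as the one comparison within a lane. The sum of 7 adipocyte markers was highest in caIKK2EC 1, at 5966.2 CPM. It was 834.0 to 2182.3 CPM in caIKK2EC 2 to 5 and 2655.1 to 3376.4 CPM in Control libraries. In comparisons within lane 7, a difference of group and this excess cannot be told apart.

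The question put to these mice is what lasting IKK2 activity in the arterial endothelium does to RNA levels in the diseased aorta, here for leukotriene genes. The 9 genes were put together with results of this comparison known, so their differences, and what the tests over the whole table called, are given as a description and support nothing further. Among members with a higher mean in caIKK2EC, Cyp4f18 differed most, at 4.0-fold, followed by Alox5ap at 1.65-fold and the receptor gene Cysltr1 at 1.59-fold. Alox15 had a log2 fold change of -1.49 that turned to 0.29 without Control 3. In Cyp4f18, Alox5ap and Cysltr1 the lowest caIKK2EC value exceeded the highest Control value, as in 7.01% of the 14679 genes tested. In no member did every caIKK2EC library lie below every Control (3.22% of genes tested). The quasi-likelihood test of edgeR called 0 members at a Benjamini-Hochberg adjusted p of 0.05, and its background over the whole table was 0.0% higher and 0.0% lower. At an unadjusted p under 0.05, 3 members were higher (9.66% of genes) and 0 lower (7.47%). DESeq2, run beside it, called 2 members higher, Cyp4f18 and Alox5ap (4.55% of genes with an adjusted p), and 0 lower (1.51%). The difference in mean log2 CPM was positive in 8 of 9 members, with a median of 0.44, and positive in 48.3% of all genes tested, with a median of -0.01. Of the 9, 8 passed the filter on low counts, Cysltr2 being the exception.

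**Figure D1:**
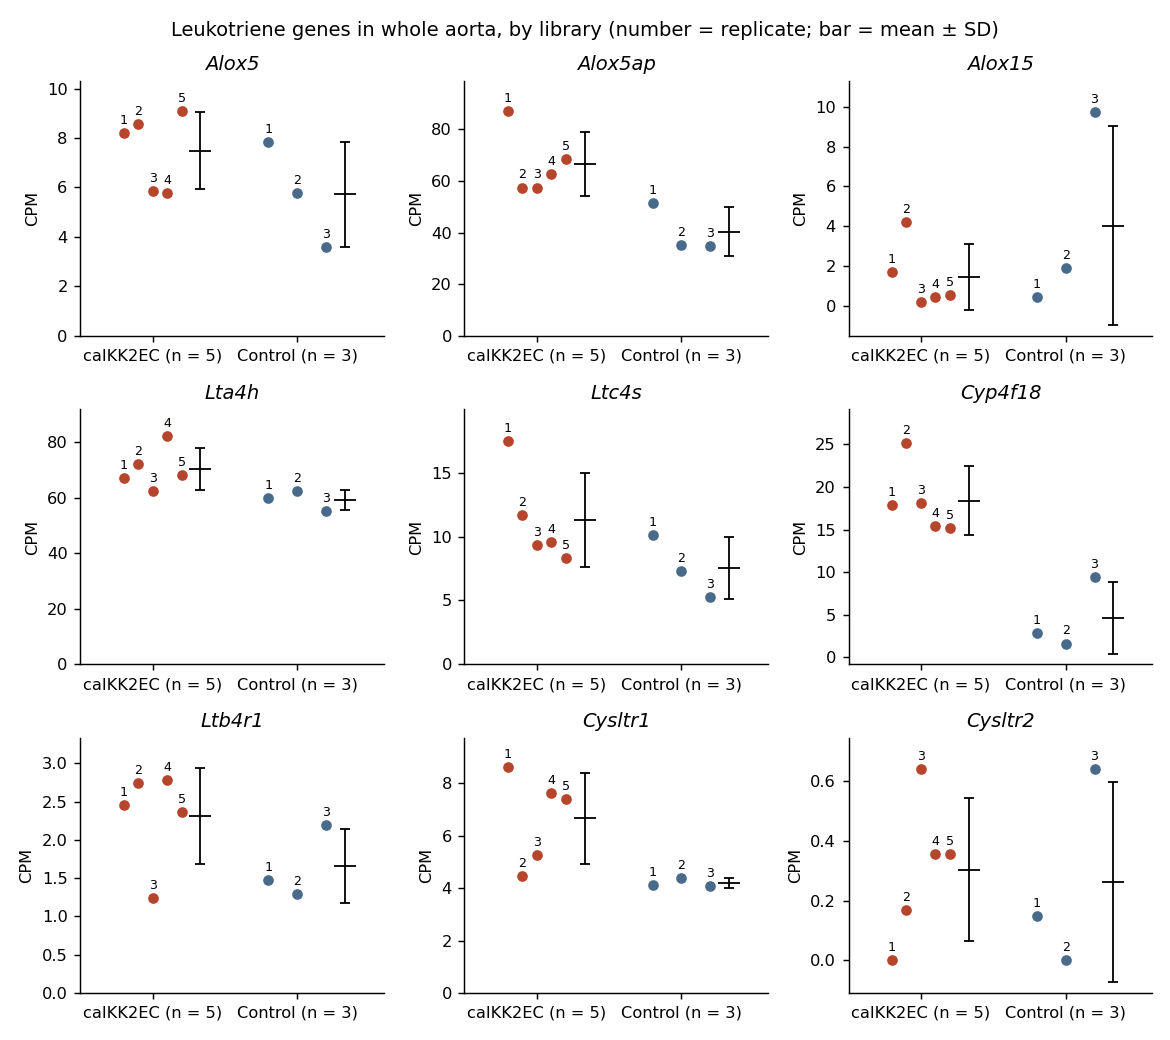
CPM of the 9 genes in each of the 5 caIKK2EC and 3 Control libraries, 1 panel per gene; each point is a mouse, numbered by replicate, and the bar is the mean ± SD. The groups are separate for Alox5ap, Cyp4f18 and Cysltr1, and Control 3 is the highest library of all for Alox15.

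Cyp4f18 (chromosome 8, 71988482 to 72009626, minus strand, GRCm38) is known in mouse neutrophils as the enzyme that oxidises LTB4. It was at 17.9, 25.2, 18.1, 15.4 and 15.2 CPM in caIKK2EC 1 to 5, from 425 to 599 counts, against 2.81, 1.63 and 9.45 CPM in Control 1 to 3, from 76, 44 and 206 counts. All 5 caIKK2EC libraries were above all 3 Controls, and among Controls the male library was several times the 2 females. The means were 18.4 ± 4.06 CPM (SD, n = 5) in caIKK2EC and 4.63 ± 4.22 CPM (SD, n = 3) in Control. The edgeR log2 fold change was 2.00 (SE 0.49, adjusted p = 0.12 over all genes), 3.05 without Control 3 (adjusted p = 0.0692) and 1.61 without Control 2, where adjusted p was 0.159. DESeq2 called the gene with all libraries (adjusted p = 0.00125) and without Control 3 (log2 fold change 3.06, adjusted p = 4.8e-21), a setting added after the values were seen. Over its 17 alternatives the adjusted p of Cyp4f18 ran from 4.8e-21 to 0.511, and 3 of them passed. Within lane 7 the log2 CPM of caIKK2EC 1 exceeded the Control mean by 2.31, against 2.33 over all libraries. By this difference Cyp4f18 ranked 13 of 14679 genes tested.

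The exons of Cyp4f18 overlap those of Zfp961 on the opposite strand over 181 of 1855 bases, and whether the authors counted by strand is not stated in the labels. The RefSeq promoter of Cyp4f18 is shown because this gene differed most between the groups. It covers 250 bases before to 50 after the annotated start (chr8:72009577-72009876, minus strand, GRCm38.p6), 5′ to 3′, with capitals on the reverse complement of the Sp1 letters GGGCGG, whose first base lies at -106 from the start.

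Cyp4f18 promoter: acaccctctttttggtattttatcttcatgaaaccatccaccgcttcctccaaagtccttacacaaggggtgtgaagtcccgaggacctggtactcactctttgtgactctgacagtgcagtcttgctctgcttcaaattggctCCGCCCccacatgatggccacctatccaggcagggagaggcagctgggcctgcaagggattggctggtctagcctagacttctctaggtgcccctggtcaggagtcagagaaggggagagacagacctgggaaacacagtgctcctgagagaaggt

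Promoters of 6 of the 9 members were in the RefSeq table, those of Alox5ap, Alox15 and Cysltr1 not. Both strands were searched for GGGA, any 2 bases and TTCC in a row (NF-κB), GAGGAAGT (PU.1), GGGCGG (Sp1) and TTGCGCAA (C/EBP), motifs that do not overlap one another in these 6. The NF-κB letters were in 0 of the 6 and in 1.47% of all 32851 promoters of this length. The PU.1 letters were in that of Ltb4r1 and in 3.2% of promoters, the Sp1 letters in those of Alox5, Cyp4f18 and Ltb4r1 and in 35.7%, and the C/EBP letters in 0 of the 6 and in 0.183%. A match describes the letters of this window and is not a measured binding site.

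Alox5ap (chromosome 5, 149264767 to 149288153, plus strand), the membrane protein that presents arachidonic acid to 5-lipoxygenase, was at 86.8, 57.4, 57.4, 62.5 and 68.3 CPM in caIKK2EC 1 to 5, against 51.4, 35.0 and 34.7 CPM in Control 1 to 3. The groups did not overlap, with caIKK2EC 1 highest and Control 1 closest to the caIKK2EC range. The means were 66.5 ± 12.2 CPM (SD, n = 5) in caIKK2EC and 40.4 ± 9.54 CPM (SD, n = 3) in Control. Its edgeR log2 fold change was 0.72 (SE 0.18, adjusted p = 0.129), from 0.62 without caIKK2EC 1 or Control 3 to 0.95 without Control 1. DESeq2 called it with all libraries (adjusted p = 0.0133) and not without Control 3 (adjusted p = 0.103), and its adjusted p ran from 0.0133 to 0.511 over 17 alternatives. Within lane 7 the log2 difference was 1.13, against 0.73 over all libraries. Its exons share 189 of 1420 bases with Gm19719 on the opposite strand.

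Alox5 (chromosome 6, 116410077 to 116461178, minus strand), the lipoxygenase that opens the pathway, was at 8.2, 8.55, 5.85, 5.77 and 9.09 CPM in caIKK2EC 1 to 5, against 7.82, 5.77 and 3.58 CPM in Control 1 to 3. The groups overlapped: 3 of 5 caIKK2EC libraries exceeded the highest Control. The log2 fold change was 0.39 (SE 0.28), 0.14 without Control 3 and 0.69 without Control 1. The edgeR test did not call it in any setting, with adjusted p-values from 0.261 without Control 1 upward. The promoter of Alox5 (chr6:116461129-116461428, minus strand, RefSeq, GRCm38.p6) is shown as that of the pathway's first enzyme, with capitals on the Sp1 letters, which begin at -35.

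Alox5 promoter: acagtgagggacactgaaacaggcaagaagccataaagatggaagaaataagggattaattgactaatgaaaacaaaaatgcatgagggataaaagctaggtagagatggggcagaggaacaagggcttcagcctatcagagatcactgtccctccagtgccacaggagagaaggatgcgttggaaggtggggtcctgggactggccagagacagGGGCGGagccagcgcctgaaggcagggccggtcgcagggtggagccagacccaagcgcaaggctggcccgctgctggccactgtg

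Alox15 (chromosome 11, 70344152 to 70352031, minus strand), the 12/15-lipoxygenase known from resident peritoneal macrophages and eosinophils, was the 1 member with a lower mean in caIKK2EC, and this rested on 1 mouse. It was at 1.71, 4.21, 0.214, 0.463 and 0.55 CPM in caIKK2EC 1 to 5, against 0.444, 1.89 and 9.73 CPM in Control 1 to 3. Control 3, with 212 counts, was above every other library, and the remaining 7 libraries of both groups overlapped. The log2 fold change of -1.49 (SE 1.01, adjusted p = 0.487) became 0.29 without Control 3, where adjusted p was 0.933, and -2.44 without caIKK2EC 2. Eosinophil markers were near 0, with summed levels of 2.6 to 3.89 CPM over 7 genes in caIKK2EC libraries and 1.42 to 2.77 CPM in Control libraries. Control 3 was the lowest of these at 1.42 CPM. Epx, the eosinophil peroxidase gene, had no count in all 3 Controls and in 4 of 5 caIKK2EC libraries. Siglecf, which some macrophages express too, was detected in every library, at 1.96 to 3.16 CPM in caIKK2EC and 1.15 to 2.11 CPM in Control. The 4 peritoneal macrophage markers summed to 78.9 to 121 CPM in caIKK2EC and 111 to 121 CPM in Control. Most of this was 1 gene, Gata6, at 66.6 to 110 CPM, and its cell source in whole aorta was not tested. Timd4, of the same list, was at 2.05 to 4.56 CPM. In neither of these lists was Control 3 the highest library. It was the highest for the summed 6 resident adventitial macrophage markers, at 568 CPM. That sum was 354 to 555 CPM in caIKK2EC and 483 and 407 CPM in Control 1 and 2. Cbr2 made up 357 CPM of it in Control 3, where Lyve1 and Folr2 were lowest. The part of these cells in the values of Alox15 was not tested.

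**Figure D2:**
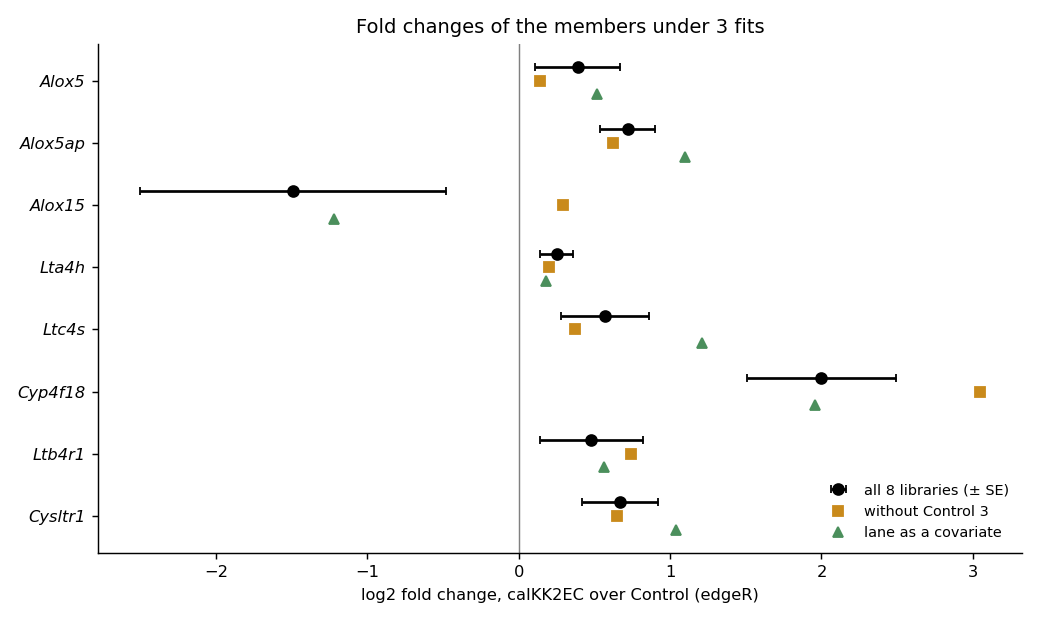
Log2 fold change (caIKK2EC over Control) of the 8 members that edgeR fitted, with all 8 libraries (± SE), without Control 3 and with lane as a covariate. Alox15 is at -1.49 with all libraries and at 0.29 without Control 3, and Cyp4f18 moves to 3.05 without Control 3.

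Of the 2 members that use leukotriene A4, neither was called by edgeR or DESeq2, and the groups overlapped in both. Lta4h (chromosome 10, 93453411 to 93484875, plus strand), which makes LTB4, was at 67.2, 72.0, 62.4, 82.1 and 68.1 CPM in caIKK2EC 1 to 5, against 59.8, 62.5 and 55.3 CPM in Control 1 to 3. It was the steadiest member within caIKK2EC, with a coefficient of variation of 10.5% there and 6.08% in Control, and caIKK2EC 3 alone lay within the Control range. Its log2 fold change was 0.25 (SE 0.11, adjusted p = 0.294). Ltc4s (chromosome 11, 50236461 to 50238616, minus strand), which makes LTC4, was at 17.5, 11.7, 9.31, 9.54 and 8.34 CPM in caIKK2EC 1 to 5, against 10.1, 7.32 and 5.28 CPM in Control 1 to 3. The library highest for Ltc4s, caIKK2EC 1, was also the highest for Alox5ap and Cysltr1. The log2 fold change of Ltc4s was 0.57 (SE 0.29, adjusted p = 0.35), 0.37 without caIKK2EC 1 or without Control 3, and 0.86 without Control 1. The exons of Ltc4s overlap Gm26542 on the opposite strand over 268 of 1014 bases.

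Cysltr1 (chromosome X, 106574346 to 106603679, minus strand), the high-affinity receptor for leukotriene D4, was at 8.62, 4.47, 5.25, 7.62 and 7.41 CPM in caIKK2EC 1 to 5, against 4.11, 4.4 and 4.08 CPM in Control 1 to 3. The groups did not overlap, but caIKK2EC 2 at 4.47 CPM (106 counts) was close to Control 2 at 4.4 CPM (119 counts). Its mean was 6.67 ± 1.74 CPM (SD, n = 5) in caIKK2EC and 4.2 ± 0.176 CPM (SD, n = 3) in Control. The log2 fold change was 0.67 (SE 0.25, adjusted p = 0.218), and DESeq2 did not call it (adjusted p = 0.104).

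Ltb4r1 (chromosome 14, 55765962 to 55768494, plus strand), the LTB4 receptor of leukocytes, was at 2.45, 2.74, 1.24, 2.78 and 2.36 CPM in caIKK2EC 1 to 5, against 1.48, 1.29 and 2.2 CPM in Control 1 to 3. Of the caIKK2EC libraries 4 lay above all Controls and caIKK2EC 3, with 29 counts, lay below all Controls. The log2 fold change was 0.48 (SE 0.34, adjusted p = 0.509), and 0.74 without Control 3. Cysltr2 (chromosome 14, 73025603 to 73049114, minus strand), the other cysteinyl leukotriene receptor, had 0, 4, 15, 10 and 11 counts in caIKK2EC 1 to 5 and 4, 0 and 14 counts in Control 1 to 3. A count of 0 allows up to 3 counts, or 0.117 CPM in caIKK2EC 1 and 0.111 CPM in Control 2, counting error only. The groups overlapped, and the DESeq2 log2 fold change of Cysltr2 had an SE of 1.28. At these counts and this spread between mice, a difference was neither shown nor excluded. Its DESeq2 log2 fold change of 0.22 was 2.05 without Control 3, from these few counts. The promoter of Ltb4r1 (chr14:55765712-55766011, plus strand, RefSeq, GRCm38.p6) is shown as the one with the PU.1 letters, PU.1 being a transcription factor of myeloid cells. Capitals mark the reverse complement of the Sp1 letters, beginning at -31, and that of the PU.1 letters, beginning at base 1 of the transcript.

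Ltb4r1 promoter: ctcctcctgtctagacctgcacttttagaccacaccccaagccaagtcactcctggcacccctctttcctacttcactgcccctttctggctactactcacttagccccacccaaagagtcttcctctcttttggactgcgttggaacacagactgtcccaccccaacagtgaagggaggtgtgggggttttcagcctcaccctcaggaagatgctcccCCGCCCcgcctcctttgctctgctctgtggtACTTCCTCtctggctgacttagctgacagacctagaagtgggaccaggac

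Per length, Alox5ap was the highest member in both groups, by a margin wider than the spread between libraries. RPKM (CPM per 1000 bases of merged exons of all annotated transcripts, GENCODE M21) averaged 46.8 ± 8.62 (SD, n = 5) for Alox5ap in caIKK2EC and 28.4 ± 6.72 (SD, n = 3) in Control. Alox5 itself, the enzyme that Alox5ap serves, averaged 1.82 ± 0.382 RPKM in caIKK2EC and 1.39 ± 0.516 RPKM in Control. The RPKM ratio of Alox5ap to Alox5 was 19.4 to 31.4 in caIKK2EC libraries and 17.5, 19.0 and 28.1 in Control libraries, so it overlapped between the groups.

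In caIKK2EC, Lta4h (11.5 ± 1.21 RPKM), Ltc4s (11.1 ± 3.64 RPKM) and Cyp4f18 (9.91 ± 2.19 RPKM) came after Alox5ap, and their ranges overlapped from one to the next. Alox5, Ltb4r1 (1.66 ± 0.45 RPKM), Cysltr1 (1.3 ± 0.339 RPKM), Alox15 (0.583 ± 0.676 RPKM) and Cysltr2 (0.106 ± 0.0834 RPKM) followed, again with each overlapping its neighbour, while Cyp4f18 and Alox5 were separate. In Control, Lta4h was at 9.7 ± 0.59 RPKM and Ltc4s at 7.48 ± 2.41 RPKM, and Cyp4f18 at 2.5 ± 2.27 RPKM lay below Ltc4s without overlap. Alox15 then came at 1.64 ± 2.04 RPKM, followed by Alox5, Ltb4r1 at 1.19 ± 0.344 RPKM and Cysltr1 at 0.816 ± 0.0341 RPKM. From Cyp4f18 to Ltb4r1 each range overlapped the next. The place of Alox15 rested on Control 3, at 3.96 RPKM. In Control 1 and 2 it was at 0.181 and 0.768 RPKM. These values were below Alox5 (1.9 and 1.4 RPKM) and Ltb4r1 (1.06 and 0.928 RPKM) in the same libraries. By RPKM, Cyp4f18 thus overlapped the synthetic enzymes Lta4h and Ltc4s in caIKK2EC and lay below both in Control 1 and 2. In Control 3 it was at 5.09 RPKM beside Ltc4s at 5.2 RPKM. This order rests on merged exon lengths of 6102 bases for Lta4h, 1855 for Cyp4f18 and 1014 for Ltc4s. In CPM, Lta4h was at 62.4 to 82.1 and Cyp4f18 at 15.2 to 25.2 in caIKK2EC. Which transcripts were expressed was not tested. The RPKM ratio of Cyp4f18 to Lta4h, the enzyme that makes its substrate, was separate between the groups. It was 0.875, 1.15, 0.957, 0.619 and 0.735 in caIKK2EC 1 to 5. In Control 1 to 3 it was 0.155, 0.0857 and 0.562. The ratios of Cyp4f18 to Alox5 and to Alox5ap overlapped between the groups, because of Control 3. That to Alox5 was 3.7 to 6.87 in caIKK2EC libraries and 0.797, 0.624 and 5.85 in Control 1 to 3. That to Alox5ap was 0.158 to 0.337 in caIKK2EC libraries and 0.0419, 0.0356 and 0.208 in Control 1 to 3. The ratio of Lta4h to Ltc4s, the enzymes of the LTB4 and LTC4 branches, was 0.637 to 1.43 in caIKK2EC libraries and 0.979 to 1.74 in Control libraries, with overlap.

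**Figure D3:**
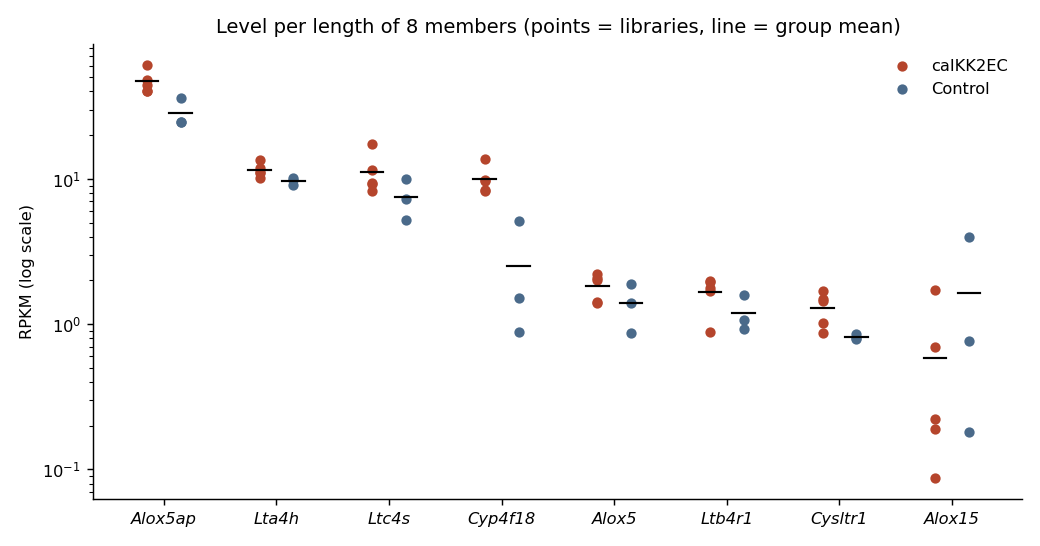
RPKM (log axis) of 8 members in each caIKK2EC and Control library, with a line at each group mean, ordered by the caIKK2EC mean; Cysltr2 is left out because 2 libraries have no count. Alox5ap is highest in both groups, and Cyp4f18 lies beside Lta4h and Ltc4s in caIKK2EC and below both in Control 1 and 2, with Control 3 close to Ltc4s.

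Leukocyte markers of the vessel differed between the groups as well, and DESeq2 called 9 of the 12 macrophage markers higher (4.55% of all genes) while edgeR called 0, with 11 higher at an unadjusted p under 0.05 (9.66% of all genes). All 12 had a positive difference (48.3% of all genes), and 10 were higher without overlap (7.01% of all genes). Their summed level was 9069.6 to 12798.6 CPM in caIKK2EC libraries and 2364.9 to 7458.2 CPM in Control libraries. Per 1000 CPM of macrophage markers, Alox5ap was at 6.39 ± 1.41 CPM (SD, n = 5) in caIKK2EC and 8.83 ± 5.21 CPM (SD, n = 3) in Control, with overlap. Without Control 3 the Control mean was 5.91 CPM, so the order of the means turned on that library. No member was separate between the groups on this scale. Cyp4f18 stood at 1.74, 2.78, 1.42, 1.62 and 1.37 CPM on it in caIKK2EC 1 to 5, against 0.391, 0.218 and 4.0 CPM in Control 1 to 3. The 2 female Controls were below all caIKK2EC libraries and the male Control above them all. Lyz2 made up 51.4 to 58.5% of the marker sum in caIKK2EC libraries, against 56.3, 59.0 and 22.9% in Control 1 to 3. On the sum of the other 11 markers, a scale added after the values were seen, Cyp4f18 stood at 3.04 to 5.73 CPM in caIKK2EC libraries, against 0.894, 0.532 and 5.18 CPM in Control 1 to 3, which puts Control 3 within the caIKK2EC range. Lta4h, at 11.7 to 18.3 CPM in caIKK2EC and 19.0 to 30.3 CPM in Control, was then the one member whose groups were separate. The sum it was divided by was itself separate, at 4404.5 to 5314.6 CPM in caIKK2EC and 1823.8 to 3147.9 CPM in Control. Undivided, Lta4h overlapped between the groups, with means of 70.3 CPM in caIKK2EC and 59.2 CPM in Control. Whether Lta4h per macrophage differed was not tested. The 8 dendritic cell markers also all had a positive difference (48.3% of all genes). Of them 5 were without overlap (7.01% of all genes) and 4 were called by DESeq2 (4.55%). They summed to 451 to 602 CPM in caIKK2EC and 263 to 358 CPM in Control. Most of that sum was Itgax, at 312 to 421 CPM in caIKK2EC and 189 to 274 CPM in Control. Flt3, Zbtb46 and Clec9a overlapped between the groups, with Zbtb46 at means of 10.2 CPM in caIKK2EC and 9.31 CPM in Control. The part of macrophage and dendritic cell number in the members' differences was not tested.

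Neutrophil markers, 11 of 12 found in the table, summed to 54.7 to 70.1 CPM in caIKK2EC and 26.4 to 47.3 CPM in Control, without overlap. Csf3r, the receptor for granulocyte colony-stimulating factor, which monocytes express too, made up 51.0 to 62.9% of that sum in caIKK2EC libraries and 49.2 and 48.0% in Control 2 and 3, at 31.9 to 40.8 CPM in caIKK2EC and 12.7 to 23.7 CPM in Control. DESeq2 called Csf3r (adjusted p = 0.000764) and the collagenase gene Mmp8 (adjusted p = 0.0197) higher, and edgeR called neither. The list did not move one way: 7 of the 11 had a positive difference and 4 a negative one. Retnlg, a resistin-like gene of neutrophils, was lower without overlap, at 0.128 to 0.356 CPM in caIKK2EC and 0.444 to 0.78 CPM in Control (edgeR adjusted p = 0.198). The granule gene Ngp was at 0.0647 to 1.01 CPM in caIKK2EC and 0.321 to 1.52 CPM in Control, with overlap. S100a8 and S100a9, the calcium-binding proteins that fill neutrophils, were at 1.84 to 7.99 CPM in caIKK2EC and 1.65 to 6.26 CPM in Control, with overlap. The granule genes Elane, Mpo and Camp were at or under 0.741 CPM in every library. The part of neutrophils in the difference of Cyp4f18 was not tested. The smooth muscle markers, lower in mean in caIKK2EC in 8 of 8, summed to 10061.9 to 20857.0 CPM in caIKK2EC and 18334.6 to 36540.5 CPM in Control. Mast cell markers overlapped between the groups, at 82.9 to 109 CPM in caIKK2EC and 63.7 to 97.5 CPM in Control, and their part in the differences of Ltc4s was not tested.

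**Figure D4:**
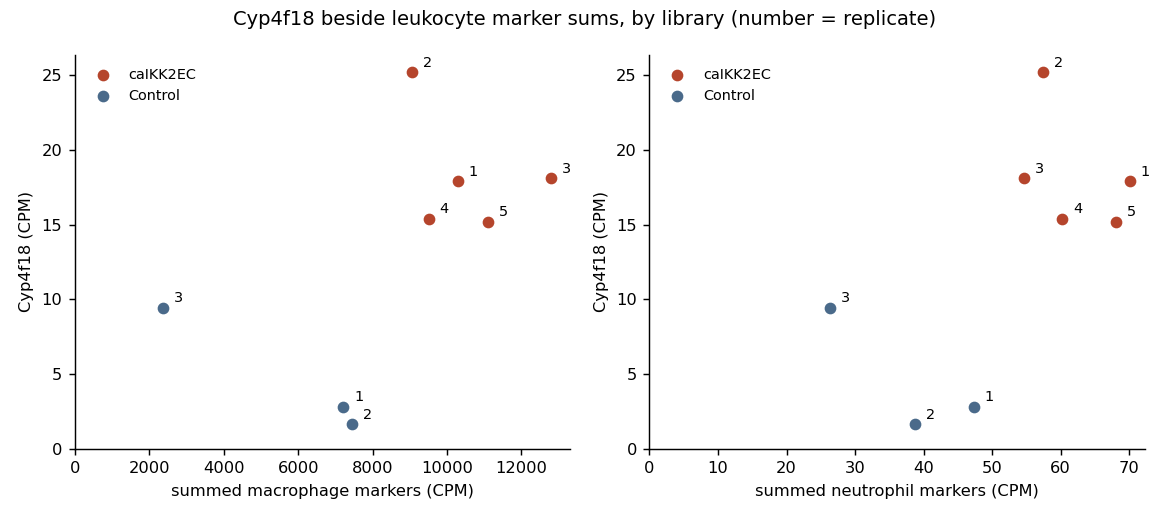
Cyp4f18 CPM against the summed CPM of 12 macrophage markers (left) and 11 neutrophil markers (right), each point a library numbered by replicate, caIKK2EC and Control in 2 colours. Control 3 has more Cyp4f18 (9.45 CPM) than Control 1 and 2 (2.81 and 1.63 CPM) at lower marker sums.

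After the group means were removed, the genes whose log2 CPM varied most like a member's were sought among 12099 others over the 8 libraries, members left out, and the libraries share whole-aorta tissue and 2 lanes. Alox5 varied most like Rnase4 (Pearson r = 0.996), which encodes a secreted ribonuclease, and the complement protease genes C1s1 (0.977) and C1ra (0.965). Alox5ap varied most like Casq2 (0.97), which encodes a calcium store protein of muscle, Pts (0.969) and Mccc2 (0.966). For Cyp4f18 the nearest were Phf19 (0.989), Tmem160 (0.984) and Spr (0.974), and for Cysltr1 they were Flt4 (0.971), the lymphatic VEGF receptor gene, Zfp229 (0.969) and Rab11fip1 (0.967). Among the members themselves, Alox5ap and Ltc4s (0.77) were the most alike pair, ahead of Alox15 and Ltb4r1 (0.66). These values are descriptions without a test.

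A wider list of 39 genes around the pathway was also read, with results of these data already known. It held 26 genes that passed the filter, 9 with too few counts and 4 with no count in any library (Pla2g10, Alox12b, Oxgr1 and Gpr17). Of the 26, edgeR called 0 higher and 0 lower, with 3 higher and 2 lower at an unadjusted p under 0.05, near the shares of 9.66% higher and 7.47% lower over all genes. DESeq2 called 2 higher, Cotl1 and Dpep2, against 4.55% of all genes, and 1 lower, Alox12, against 1.51%. The median difference over the 35 detected genes was -0.05 on the log2 scale, against -0.01 for all genes tested.

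Cotl1, an actin-binding protein that also binds 5-lipoxygenase, was at 492, 478, 539, 478 and 514 CPM in caIKK2EC 1 to 5, against 357, 327 and 289 CPM in Control 1 to 3. The groups did not overlap and the spread within each was small next to the difference. Its log2 fold change was 0.62 (SE 0.12, edgeR adjusted p = 0.107, DESeq2 adjusted p = 7.83e-06), 0.61 within lane 7 and 0.55 without Control 3 on the log2 CPM scale. Dpep2, a dipeptidase that can turn leukotriene D4 into E4, was at 50.1, 31, 39.2, 37.3 and 40.1 CPM in caIKK2EC 1 to 5, against 25.4, 18.6 and 11.9 CPM in Control 1 to 3, again without overlap. Its log2 fold change was 1.08 (SE 0.24, edgeR adjusted p = 0.109, DESeq2 adjusted p = 0.00129), 1.49 within lane 7 and 0.84 without Control 3 on the log2 CPM scale. The related dipeptidase gene Dpep1 had a mean of 51.7 ± 18.3 CPM (SD, n = 5) in caIKK2EC and 76.5 ± 9.99 CPM (SD, n = 3) in Control, and the groups overlapped. Its edgeR adjusted p was 0.291 at a log2 fold change of -0.57 (SE 0.25).

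Alox12, the platelet-type 12-lipoxygenase, was at 1.44, 2.19, 1.11, 1.57 and 1.75 CPM in caIKK2EC 1 to 5, against 1.81, 3.4 and 8.07 CPM in Control 1 to 3. As with Alox15, Control 3 was the highest library, and the log2 CPM difference without it was -0.64, whereas edgeR with all libraries gave -1.45 (SE 0.44, adjusted p = 0.159). Abcc1, which exports LTC4, was at 70.4 to 115 CPM in caIKK2EC libraries, against 100, 95.4 and 200 CPM in Control 1 to 3, so that Control 3 alone lay outside the caIKK2EC range. Its log2 CPM difference was -0.32, and 0.02 without Control 3. Phospholipase Pla2g4a, which releases arachidonic acid, averaged 50.4 ± 4.76 CPM (SD, n = 5) in caIKK2EC and 56.7 ± 11.8 CPM (SD, n = 3) in Control and was not called. Ptgr1, a reductase that inactivates LTB4, averaged 27.9 ± 2.05 CPM in caIKK2EC and 23.6 ± 0.972 CPM in Control, without overlap and not called (edgeR adjusted p = 0.286). The second LTB4 receptor gene, Ltb4r2, had 2, 8, 5, 0 and 5 counts in caIKK2EC 1 to 5 and 0, 1 and 1 in Control 1 to 3, too few for a comparison. Cyp4f16, of the same P450 family as Cyp4f18, averaged 19.3 ± 1.15 CPM in caIKK2EC and 15.9 ± 2.15 CPM in Control and was not called (edgeR adjusted p = 0.299). Mapkapk2, a kinase that phosphorylates 5-lipoxygenase, averaged 214 ± 19.5 CPM in caIKK2EC and 222 ± 37.3 CPM in Control and was not called. Cmklr1, a receptor for the lipid mediator resolvin E1 and for chemerin, was the most abundant receptor of the list at 113 ± 10.6 CPM in caIKK2EC and 98 ± 18.3 CPM in Control, and was not called.

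**Figure D5:**
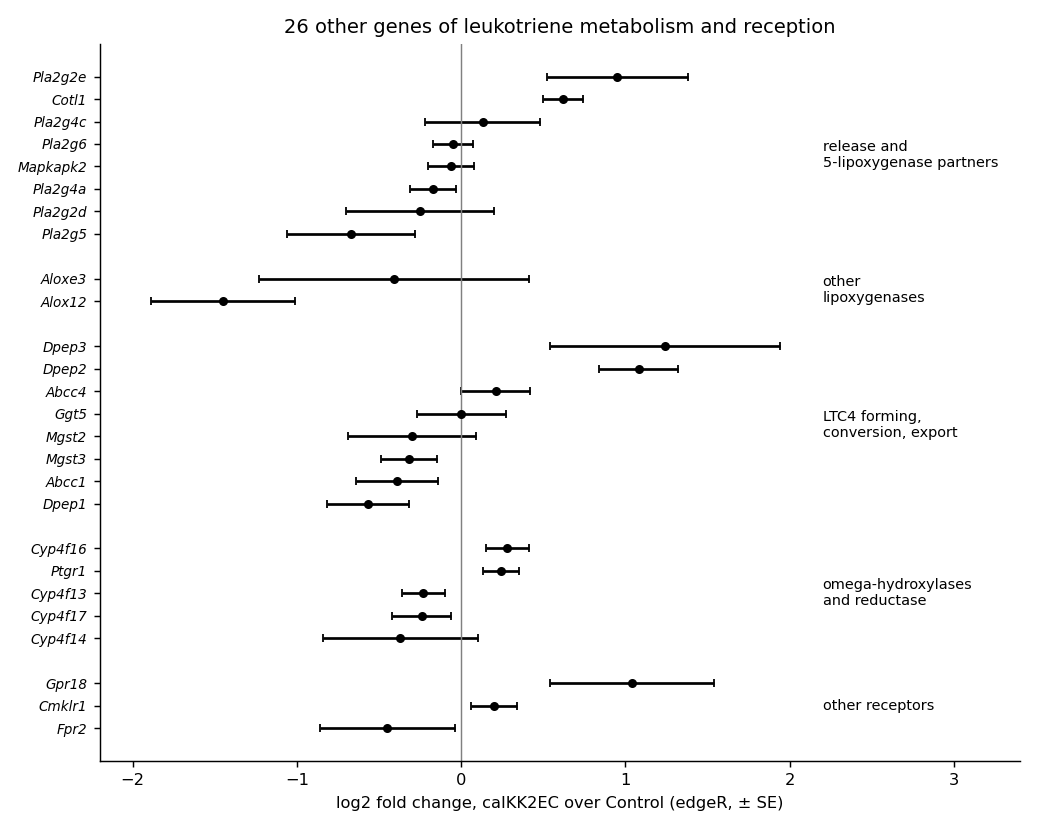
Log2 fold change (caIKK2EC over Control, edgeR, ± SE) of the 26 listed genes that passed the filter, grouped by role. Dpep2 (1.08) and Cotl1 (0.62) lie to the right and Alox12 (-1.45) to the left.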

How the data were processed

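The authors' deposited counts are whole numbers for each gene name, not normalized, from poly(A) libraries read as 50 nt single ends, per the labels' protocols. Build GRCm38 (mm10) and the tools STAR 2.7.0e, FastQC 0.11.5 and DESeq2 1.22.2 are listed in the submitters' processing notes. Neither the labels nor these notes state the counting program, annotation or strand setting. The authors' deposited comparison table holds counts divided by size factors (a signal), log2 fold changes with a score, and p-values, and it was not used for values here. 0 columns lacked a sample.

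Differences were tested with edgeR 4.0.16 (R 4.3.3): TMM, default filter (14679 genes), robust quasi-likelihood fit, group as the only term, Benjamini-Hochberg over all genes, threshold 0.05. DESeq2 1.42.0 (genes with at least 10 counts in total) was an alternative, and an adjusted p it gave as NA stayed NA. Log2 CPM used a prior count of 2. Medians over lists are of differences in mean log2 CPM, of DESeq2 fold changes where that tool is named. Both tools were tested on simulated data. The genes named are the 9 members, Ikbkb, the 6 genes of the wider list with the smallest p and the 6 with the highest mean CPM, and the 3 nearest genes by r of members, given here for 4 of them. Ltb4r2 falls outside this rule and was chosen after its values were seen. The members, lists and tests were chosen with earlier results of these data known. Each library is 1 mouse, and p-values measure the spread between mice. The 27 gene names that had become dates stayed as they were.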

Additional observations from a re-analysis of the deposited data

Results flagged for a closer look

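Ltb4r1 in caIKK2EC 3 was at 1.24 CPM, below the 2.36 to 2.78 CPM of the other caIKK2EC libraries, by a gap of 0.73 of the group's whole range, over the limit of 0.71 for 5 samples. It rests on 29 counts. In all, 16 sets of 5 values were checked in this way, and chance flags about 1 in 20.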

How the results depend on the processing

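The number of genes called over the whole table changed most. It was 0 higher and 0 lower in edgeR, 407 higher and 254 lower with age as a covariate, 652 and 217 with DESeq2, 356 and 33 with DESeq2 without Control 3, and from 0 to 230 higher and 0 to 129 lower when 1 library was left out, the highest without caIKK2EC 2. Members called were 0 in edgeR, 2 with age as a covariate (Alox5ap, adjusted p = 0.0421, and Cyp4f18, adjusted p = 0.0427), 2 with DESeq2, 1 with DESeq2 without Control 3, and 0 without any single library. Among Controls the age term sets Control 3 apart. The wider list had 0 called, 3 with age as a covariate, 3 with DESeq2, 2 with DESeq2 without Control 3, and 0 to 2 without single libraries. The cause was not tested. The log2 fold change of Alox15, -1.49 with all libraries, ran from -2.44 without caIKK2EC 2 to 0.29 without Control 3 when 1 library was left out, and was 0.28 with sex as a covariate and 0.30 with DESeq2 without Control 3. That of Cysltr2, 0.24 without a filter, was -0.01 without Control 1, -0.33 without Control 2 and 2.05 with DESeq2 without Control 3. The members' median log2 difference stayed at 0.42 to 0.64 over 17 alternatives. With lane as a covariate the log2 fold changes of Alox5ap, Ltc4s and Cysltr1 were 1.1, 1.21 and 1.04. These rest on caIKK2EC 1, the library with the highest sum of adipocyte markers. Whether replicate numbers pair the mice was not settled by likeness. Same-numbered libraries correlated at 0.335, 0.099 and 0.097 after group means were removed. For Control 1 and 2 these were the best matches, whereas Control 3 correlated best with caIKK2EC 4 (0.18). With the replicate block edgeR called 0 genes higher and 0 lower, and the log2 fold change of Cyp4f18 was 2.47. Counts of 0 to 15 limit what can be said of Cysltr2.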
